A study of Mus musculus with 14 samples.

Results

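The enzymes that make serine, one-carbon units, polyamines and nucleotides were followed in lung tumors of mice that carry a c-Myc transgene. A list of 46 gene names was used, and a gene was taken as measured where a probe set of the array carried that symbol and no other. By this rule 35 of the 46 genes were on the array with 53 probe sets, out of 8251 genes and 10833 probe sets with 1 symbol, and 4 of the 35 were listed under an older name (Adssl1 for Adss1, Adss for Adss2, Ctps for Ctps1, Hprt for Hprt1). Sms and Oaz1 were only on probe sets shared with other symbols and were not used, and no probe set carried the symbols Mthfd1, Amd1, Impdh2, Gmps, Atic, Paics, Mat2a, Cbs or Amt. Of the 35 genes, 34 passed the filter on low values, which asked for 3 or more arrays at a signal of 70 or above. Mtr, the methionine synthase, stayed below 70 on every array and was not tested. Aprt and Ppat were below 70 in every control lung and passed through their tumor signals alone. Shmt1, Phgdh and Prps2 reached 70 in 1 control lung and Cad and Nme1 in 2, so they also needed tumor arrays to pass.

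RNA of 14 samples was hybridized to Affymetrix Murine Genome U74v2 arrays. The control group was lung of 4 non-transgenic mice. The tumors came from hemizygous SPC/c-Myc mice, in which the surfactant protein C promoter drives c-Myc in the respiratory epithelium, and were cut out of the lung around them. They were 3 pools of 3 to 4 small tumors (1 mm) of 1 animal each, 4 middle-sized tumors (4 to 5 mm) and 3 large tumors (10 mm or more). All groups were aged 9 to 13 months and share the CD2F1-(DBA/2xBalb/C) background, and each sample was 1 animal, so the controls differ from the tumors both in genotype and in being whole lung. Values are MAS 5 signals, a linear intensity scaled by the authors to a mean of 250 per array. Signals below 70 were raised to 70 before log2, and a gene is called higher or lower at a Benjamini-Hochberg adjusted p under 0.05 over 6914 probe sets fitted in limma. The array of middle-sized tumor 3 had 25.0% of its values at or near 0, which were left out as missing, so 9 of the 34 genes have 9 tumors and not 10. Signals of 70 or more were found for 6796 to 7575 probe sets on each of the remaining 13 arrays.

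Growing cells need nucleotides for RNA and DNA, and both purine and pyrimidine rings take atoms from glycine, one-carbon units carried by folate, or amino acids. Serine, made from a glycolytic intermediate, supplies the glycine and the one-carbon units. The polyamines putrescine, spermidine and spermine are made from ornithine and bind nucleic acids, and ornithine decarboxylase is a long-known target of c-Myc.

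Myc, the gene of the transgene, was read by its probe set, and transcripts of the transgene and of the mouse's own Myc were not told apart. The Myc signal was 35.6, 24.1, 26.3 and 32.9 in control lung, 1738, 1391 and 1417 in small tumors, 325, 1246, 451 and 759.6 in middle-sized tumors, and 2165, 2008 and 1055 in large tumors. Every control lung was below 70 and every tumor above it, and middle-sized tumors 1 and 3 had the lowest Myc signals of the 10 tumors.

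In the tumors, 21 of the 34 tested genes were higher than in control lung, 2 were lower (Impdh1 and Pnp) and 11 were not called. Over all 6914 probe sets 23.6% were higher and 21% lower. The median log2 fold change was 0.75 over the 34 genes and 0.04 over all probe sets tested. In 12 of the 34 genes (35.3%) every tumor with a value lay above every control lung, and in 1, Impdh1, every tumor lay below. Over all probe sets these shares were 10.2% and 12.2%. Without Aprt and Ppat, which passed the filter through tumors alone, a choice made after seeing the data, 20 of 32 genes were higher (62.5%), 2 were lower (6.25%) and 11 had every tumor above every control lung (34.4%). The shares were 22.7%, 21.8% and 10.1% of the 6653 probe sets with at least 1 control lung at 70 or above. The 20 genes still hold Shmt1, Cad, Nme1 and Prps2, which needed tumor arrays to pass the filter. Their place among the genes called is therefore a description. Rises were found in each of the 6 roles, with 4 of 7 genes of serine and one-carbon metabolism, 1 of 1 of the methionine cycle, 3 of 5 of the polyamines, 4 of 6 of purine synthesis, 4 of 5 of pyrimidine synthesis, and 5 of 10 among phosphoribosyl pyrophosphate synthetases, nucleoside diphosphate kinases and salvage enzymes.

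**Figure D1:**
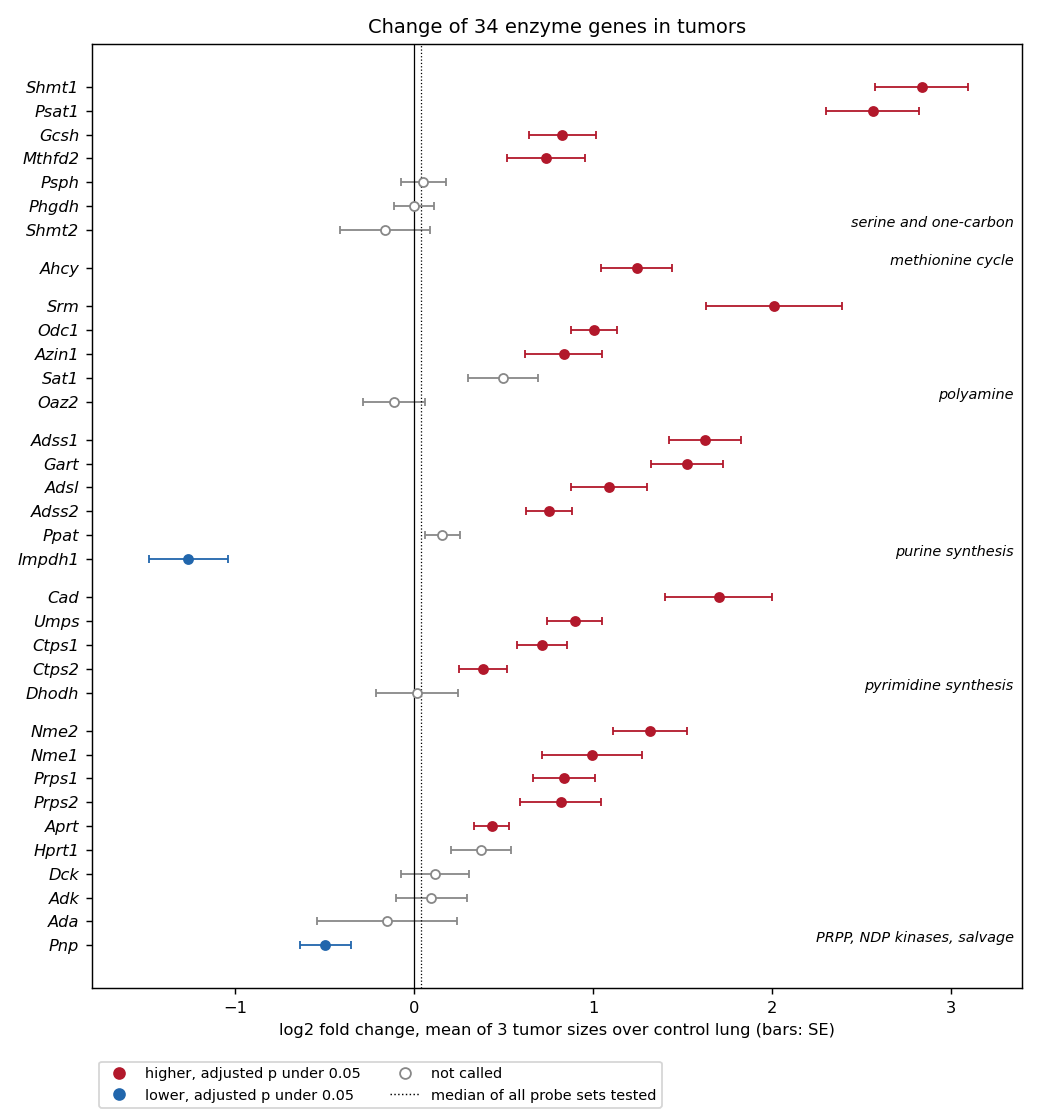
Log2 fold change of the 34 tested genes, grouped by role, as the mean of the 3 tumor sizes over control lung, with bars for the standard error. Filled red points are the 21 genes called higher, filled blue points the 2 called lower, open points the 11 not called, and the dotted line is the median of all probe sets tested (0.04).

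The genes were also read at their start sites, since c-Myc with its partner Max binds the E-box CACGTG and, less tightly, variants such as CACGCG. RefSeq windows of 300 bases, from 250 bases before to 50 bases after an annotated start (GRCm38.p6), were matched for 32 of the 35 genes and 40 starts. The genes without a window were Srm, Azin1 and Dhodh. CACGTG, which reads the same on both strands, stood in 2 of the 40 windows, both of Nme1, and in 7.15% of the 32851 windows of all genes. CACGCG, or CGCGTG on the other strand, stood in 7 of the 40 windows (17.5%), those of Shmt1, Shmt2, Psat1, Odc1, Adss1 and Adk, and in 9.27% of all windows. A window was counted once for a motif, also where CACGCG and CGCGTG lay over each other. The windows of the 5 genes that hold a motif and rose in the tumors are given 5′ to 3′ along the gene, with motif letters in capitals. They are Nme1 (chr11:93968223-93968522, minus strand), Odc1 (chr12:17544623-17544922, plus strand), Shmt1 (chr11:60811216-60811515, minus strand), Psat1 (chr19:15925010-15925309, minus strand) and Adss1 (chr12:112619797-112620096, plus strand).
Nme1: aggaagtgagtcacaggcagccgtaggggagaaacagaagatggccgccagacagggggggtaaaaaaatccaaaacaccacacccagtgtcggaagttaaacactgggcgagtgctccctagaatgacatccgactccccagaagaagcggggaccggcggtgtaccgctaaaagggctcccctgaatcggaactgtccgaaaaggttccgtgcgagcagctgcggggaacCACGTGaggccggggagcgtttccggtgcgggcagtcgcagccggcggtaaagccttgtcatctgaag
Odc1: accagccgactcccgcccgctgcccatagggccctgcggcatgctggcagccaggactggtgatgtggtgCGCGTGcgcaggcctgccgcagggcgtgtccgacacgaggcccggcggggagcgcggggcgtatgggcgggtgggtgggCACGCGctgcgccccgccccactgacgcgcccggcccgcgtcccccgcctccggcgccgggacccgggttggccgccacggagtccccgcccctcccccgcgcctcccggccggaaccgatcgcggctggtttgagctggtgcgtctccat
Shmt1: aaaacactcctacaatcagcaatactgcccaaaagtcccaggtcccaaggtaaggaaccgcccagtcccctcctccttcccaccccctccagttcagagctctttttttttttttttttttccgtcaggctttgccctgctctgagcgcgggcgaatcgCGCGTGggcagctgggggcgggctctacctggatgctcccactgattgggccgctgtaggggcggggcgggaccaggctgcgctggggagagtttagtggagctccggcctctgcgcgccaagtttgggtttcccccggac
Psat1: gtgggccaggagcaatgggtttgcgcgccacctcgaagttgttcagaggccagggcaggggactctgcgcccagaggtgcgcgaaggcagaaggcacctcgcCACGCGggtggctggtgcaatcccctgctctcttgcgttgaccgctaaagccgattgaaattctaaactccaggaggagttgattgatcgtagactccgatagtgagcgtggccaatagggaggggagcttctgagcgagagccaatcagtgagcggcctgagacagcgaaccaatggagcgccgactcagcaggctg
Adss1: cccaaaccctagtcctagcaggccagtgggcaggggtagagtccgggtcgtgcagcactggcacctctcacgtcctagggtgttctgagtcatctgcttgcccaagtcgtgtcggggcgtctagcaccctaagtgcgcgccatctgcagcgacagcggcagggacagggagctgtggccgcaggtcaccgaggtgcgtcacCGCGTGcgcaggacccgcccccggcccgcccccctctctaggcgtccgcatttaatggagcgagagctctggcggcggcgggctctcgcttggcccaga
The motif began 18 bases before the start in Nme1, 180 and 101 bases before it in Odc1, 91 in Shmt1, 148 in Psat1 and 49 in Adss1. Adk and Shmt2, whose windows also hold CACGCG or its reverse, were not called in the tumors. Of the 19 genes that rose and had a window, 14 held neither motif within it, among them Cad, Gart, Nme2 and Ahcy. Bases outside the windows, such as those further into a gene, were not searched. Whether any of these letters is bound was not measured on the arrays.

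Within serine and one-carbon metabolism the rises were uneven. Shmt1 and Psat1 had the largest log2 fold changes of all 34 genes, Gcsh and Mthfd2 rose by smaller amounts, and Phgdh, Psph and Shmt2 were not called. The signal of Shmt1, the cytosolic serine hydroxymethyltransferase that splits serine into glycine and a one-carbon unit, was 77.5, 68.2, 56.9 and 67.1 in control lung, 432, 573 and 506 in small tumors, 252, 573, 337 and 814 in middle-sized tumors, and 404, 705 and 783 in large tumors (probe set 98459_at). It was below the limit of 70 in 3 of the 4 control lungs and far above it in each tumor. With these control signals raised to 70 the log-scale mean of the tumors was at least 7.15-fold higher (log2 fold change 2.84 ± 0.26 (SE), adjusted p = 8.5e-07). A second probe set of Shmt1 stayed below 70 on every array. Psat1, the aminotransferase of the second step of serine synthesis, had signals of 129, 161, 107 and 81.6 in control lung, 641, 909 and 1041 in small tumors, 354, 892, 449.9 and 863 in middle-sized tumors, and 820.3, 499.9 and 651 in large tumors (probe set 96295_at). The groups did not overlap, middle-sized tumors 1 and 3 were the lowest of the tumors, and the means differed 5.95-fold (log2 fold change 2.56 ± 0.26 (SE), adjusted p = 2.2e-06).

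The enzymes before and after Psat1 in the same short pathway were not called. Psph, the phosphatase of the last step, was measured well above 70 at 262 ± 40.8 (SD, n = 4) in lung of the controls and 269 ± 19.3 (SD, n = 10) in the tumors (log2 fold change 0.05 ± 0.12 (SE), adjusted p = 0.773). All 10 tumors lay within the range of the control lungs, from 229 to 315. Phgdh, the dehydrogenase of the first step, was represented by a single probe set that reached 70 on 4 of 13 arrays, at 54.3 ± 28.4 (SD, n = 4) in lung of the controls and 59.9 ± 25.1 (SD, n = 9) in the tumors, so its change (log2 fold change 0.0013) says little about the enzyme.

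Shmt2, the mitochondrial counterpart of Shmt1, had signals of 192, 169.8, 172 and 385 in control lung, 146, 158 and 186 in small tumors, 315, 176 and 146 in the 3 middle-sized tumors with a value, and 198, 273 and 192 in large tumors. It was read by a single probe set, 162458_i_at. Control lung 4 was the highest of the 13 arrays with a value and the groups overlapped (log2 fold change -0.16 ± 0.25 (SE), adjusted p = 0.64). Without control lung 4 the log2 fold change was 0.12 and still not called. Gcsh, the lipoyl carrier protein of the glycine cleavage system, had signals of 249, 216, 287 and 328 in control lung, 459, 449.9 and 491 in small tumors, 344, 456 and 735 in the 3 middle-sized tumors with a value, and 380.3, 504 and 540.1 in large tumors. Every tumor with a value was above every control lung (log2 fold change 0.83 ± 0.19 (SE), adjusted p = 0.00265), and the call was lost with the value near 0 on middle-sized tumor 3 kept as deposited (log2 fold change 0.60, adjusted p = 0.315). Mthfd2, a mitochondrial enzyme of folate one-carbon units, had signals of 355, 297, 287 and 160.3 in control lung, 546, 469.6 and 498 in small tumors, 256, 339.9, 504 and 374 in middle-sized tumors, and 614, 343 and 500.1 in large tumors. In 7 of 10 tumors the signal was above every control lung, and middle-sized tumor 1 was lower than 3 of the 4 control lungs. Its call (log2 fold change 0.74 ± 0.22 (SE), adjusted p = 0.0133) was lost without control lung 4, the lowest control (log2 fold change 0.50, adjusted p = 0.0637).

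Ahcy, which clears S-adenosylhomocysteine after methyl transfer, was the one measured gene of the methionine cycle. Its signals were 405, 393, 597 and 419.9 in control lung, 1323, 1632 and 1209.9 in small tumors, 700.4, 1265, 920.3 and 977 in middle-sized tumors, and 1399, 845 and 640.3 in large tumors (probe set 96025_g_at). Each tumor was above each control lung and the small tumors were among the highest (log2 fold change 1.24 ± 0.20 (SE), adjusted p = 0.00015). The other probe sets of Ahcy had changes in the same direction, with log2 fold changes of 1.46 (adjusted p = 0.000367) and 0.55 (adjusted p = 0.0493) in a fit of all probe sets without the filter.

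In polyamine synthesis the 2 measured synthetic enzymes rose, and so did Azin1, which protects ornithine decarboxylase from antizyme. Sat1, which acetylates polyamines for export or breakdown, and the antizyme Oaz2 were not called. Srm, the spermidine synthase, had signals of 151, 144, 162 and 234 in control lung, 832, 747 and 795 in small tumors, 172, 808, 291 and 1104 in middle-sized tumors, and 586, 1129 and 1032 in large tumors (probe set 92540_f_at, whose suffix marks probes that can match several related sequences). The small tumors lay close together between 747 and 832, while middle-sized tumors 1 and 3 stood at 172 and 291, the first of them inside the control range. The means differed 4.33-fold (log2 fold change 2.01 ± 0.38 (SE), adjusted p = 0.00063), and without these 2 tumors the log2 fold change was 2.36. Odc1, the ornithine decarboxylase that opens the pathway, had signals of 199, 167, 156 and 199 in control lung, 377, 368 and 329 in small tumors, 298, 372 and 372 in the 3 middle-sized tumors with a value, and 410.2, 389 and 341 in large tumors. The 9 tumors with a value lay between 298 and 410.2, with no overlap with control lung (log2 fold change 1.01 ± 0.13 (SE), adjusted p = 3.2e-05). With the value near 0 on middle-sized tumor 3 kept as deposited, Odc1 was not called (log2 fold change 0.81, adjusted p = 0.0829). Mouse DNA holds processed copies of Odc1, and the probes may not tell these apart.

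Azin1 had signals of 1168, 809, 1424 and 1006 in control lung, 1976, 2312 and 2534 in small tumors, 1674, 3077, 1072 and 2017 in middle-sized tumors, and 1675, 1669 and 1852 in large tumors. In 9 of 10 tumors the signal was above every control lung, and middle-sized tumor 3 was the exception (log2 fold change 0.84 ± 0.21 (SE), adjusted p = 0.00532). Sat1 had signals of 1124, 1415, 1071 and 595 in control lung, 1420.2, 1482 and 1581 in small tumors, 2026, 1679.98, 1644 and 1291 in middle-sized tumors, and 1498, 1176 and 891 in large tumors. Control lung 4 was the lowest array and the groups overlapped (log2 fold change 0.50 ± 0.20 (SE), adjusted p = 0.0531). Leaving out each array in turn gave log2 fold changes of Sat1 from 0.25 to 0.66. Its adjusted p was 0.0201 without control lung 2, 0.0372 without middle-sized tumor 4 and 0.0311 without large tumor 3. Sat1 was not called when any other array was left out. Oaz2 was at 1159.8 ± 192 (SD, n = 4) in lung of the controls and 1087 ± 228 (SD, n = 10) in the tumors (log2 fold change -0.11 ± 0.17 (SE), adjusted p = 0.634).

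In purine synthesis Gart, Adsl, Adss1 and Adss2, which assemble the ring or lead to AMP, were higher, Ppat was not called, and Impdh1, the one measured enzyme of the branch to GMP, was lower. Gart, which carries out 3 steps of ring assembly, a formyl transfer from folate among them, had signals of 181, 177, 185 and 164 in control lung, 555, 558 and 462 in small tumors, 309.5, 499, 321 and 721 in middle-sized tumors, and 439, 625 and 712 in large tumors. The 4 control lungs differed by little and every tumor lay above them, with middle-sized tumors 1 and 3 lowest (log2 fold change 1.53 ± 0.20 (SE), adjusted p = 3e-05). Ppat, the amidotransferase that commits phosphoribosyl pyrophosphate to purines, had signals of 14.5, 26.7, 14.5 and 27.1 in control lung, 61.0, 62.3 and 89.1 in small tumors, 31.7, 80.5, 16.6 and 76.7 in middle-sized tumors, and 82.4, 102 and 72.3 in large tumors. All control lungs and 4 tumors were below 70, and the gene was not called with the floor of 70 (log2 fold change 0.16 ± 0.10 (SE), adjusted p = 0.218). With a floor of 35 its log2 fold change was 0.95 (adjusted p = 0.00485) and with no floor 1.67 (adjusted p = 0.0028), so its call depends on the floor.

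Adsl, the lyase that acts both in ring assembly and in the step to AMP, had signals of 218, 268, 239 and 135 in control lung, 513, 454 and 519 in small tumors, 237, 536, 345 and 486 in middle-sized tumors, and 436, 524 and 436 in large tumors. In 9 of 10 tumors the signal was above every control lung, and middle-sized tumor 1 lay inside the control range (log2 fold change 1.09 ± 0.21 (SE), adjusted p = 0.00079). Adss1, the adenylosuccinate synthase isozyme best known from muscle, had signals of 188, 156, 164 and 132 in control lung, 391, 388 and 498 in small tumors, 382, 582, 943 and 732 in middle-sized tumors, and 411, 381 and 559.7 in large tumors. Each tumor was at least at 381, while no control lung passed 188, and middle-sized tumor 3 was the highest (log2 fold change 1.62 ± 0.20 (SE), adjusted p = 1.6e-05). In the same comparison 9 of 9 tested cardiac muscle markers were lower, and the sum of 8 of these markers was 4730 to 8744 in control lung and 394 to 630 in tumors. The part of muscle in the signal of Adss1 was not tested. Adss2, the isozyme of most other tissues, had signals of 690.5, 708, 827 and 500.1 in control lung, 996, 1036 and 1047 in small tumors, 1167, 1201, 911 and 1300.02 in middle-sized tumors, and 1192, 1244 and 1290.4 in large tumors (log2 fold change 0.75 ± 0.13 (SE), adjusted p = 0.00025). Again the groups did not overlap. A second Adss2 probe set had a log2 fold change of 0.37 (adjusted p = 0.0131, fit without the filter).

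Impdh1, an IMP dehydrogenase isozyme at the entry to guanine nucleotides, had signals of 651, 542, 552 and 576 in control lung, 232, 266 and 256 in small tumors, 94.2, 179, 132 and 239 in middle-sized tumors, and 256, 373 and 523 in large tumors. Each tumor was below each control lung, but large tumor 3, at 523, lay just under the lowest control lung at 542. The mean was 580.4 ± 49.5 (SD, n = 4) in lung of the controls and 255 ± 122 (SD, n = 10) in the tumors (log2 fold change -1.26 ± 0.22 (SE), adjusted p = 0.00034). Impdh1 is one of 2 IMP dehydrogenase genes, and Impdh2 was not measured here. Many genes of cell types that are common in whole lung fell in these samples. Of 10 endothelial markers 9 were lower, and their summed signal was 14452 to 19610 in control lung and 1143 to 2746 in tumors, while none of the 4 tested type II cell markers was lower (summed signal of 3 of them 12385 to 19716 in control lung and 14092 to 24172 in tumors). Fewer cells of a type and less RNA per cell cannot be told apart in such samples, and the part of these cells in the fall of Impdh1 was not tested.

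Pyrimidine synthesis rose at its first and last enzymes. Cad, the protein that carries out the first 3 steps up to dihydroorotate, had signals of 54.7, 113, 112 and 33.5 in control lung, 295, 308 and 244 in small tumors, 119.9, 229, 160.2 and 518 in middle-sized tumors, and 377, 469 and 336 in large tumors. Both groups spread widely, 2 control lungs were below 70, and middle-sized tumor 1 at 120 was just above the highest control lung at 113 (log2 fold change 1.70 ± 0.30 (SE), adjusted p = 0.00035). Umps, which turns orotate into UMP, had signals of 174, 164, 169.9 and 259 in control lung, 354, 358 and 334 in small tumors, 302, 355 and 336 in the 3 middle-sized tumors with a value, and 307, 449 and 385 in large tumors. Every tumor with a value was above every control lung (log2 fold change 0.90 ± 0.15 (SE), adjusted p = 0.00035), and the call was lost with the value near 0 on middle-sized tumor 3 kept as deposited (log2 fold change 0.71, adjusted p = 0.131). A second Umps probe set, 101455_at, had a log2 fold change of 0.55 and was not called (adjusted p = 0.146, fit without the filter). On it every control lung was below 70, and 7 of 10 tumors were at 70 or above. Ctps1, a CTP synthase, had signals of 709, 672, 650.3 and 1111 in control lung, 1444, 1346 and 1261 in small tumors, 939.7, 1187, 1125 and 1304 in middle-sized tumors, and 1250.4, 1437 and 1237 in large tumors. Control lung 4 was higher than middle-sized tumor 1, and the other 9 tumors were above every control lung (log2 fold change 0.72 ± 0.14 (SE), adjusted p = 0.00074). Ctps2, the other CTP synthase, was at 283 ± 42.4 (SD, n = 4) in lung of the controls and 372 ± 69.4 (SD, n = 9) in the tumors (log2 fold change 0.38 ± 0.13 (SE), adjusted p = 0.0318). Its call was lost when any of 6 arrays was left out (control lungs 1 and 4, small tumors 2 and 3, middle-sized tumor 2, large tumor 1), with adjusted p from 0.0518 to 0.114.

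Dhodh, the mitochondrial dehydrogenase between Cad and Umps, was measured by probe sets that disagreed. The one of higher signal, 161397_r_at, was at 548 ± 202 (SD, n = 4) in lung of the controls and 552 ± 171 (SD, n = 9) in the tumors (log2 fold change 0.02 ± 0.23 (SE), adjusted p = 0.96). The other, 103683_at, had signals of 126, 113, 138 and 153 in control lung, 277, 339 and 263 in small tumors, 160.2, 240.4, 165 and 339 in middle-sized tumors, and 262, 278 and 244 in large tumors. All 10 tumors were above all 4 control lungs on this probe set (log2 fold change 0.95, adjusted p = 0.0029, fit without the filter). The 2 probe sets share the gene symbol, and the arrays do not say which of them follows the transcript.

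Phosphoribosyl pyrophosphate is the activated sugar of all nucleotide synthesis, and both measured synthetases rose. Prps1 had signals of 538, 539, 618 and 345 in control lung, 898, 708 and 885 in small tumors, 603, 889.9, 672 and 1137 in middle-sized tumors, and 1009, 1057 and 1153 in large tumors. In 9 of 10 tumors the signal was above every control lung (log2 fold change 0.84 ± 0.17 (SE), adjusted p = 0.00133). Prps2, close to the limit of 70 in control lung, was at 67.7 ± 7.15 (SD, n = 4) in lung of the controls and 129.9 ± 41.2 (SD, n = 9) in the tumors (log2 fold change 0.82 ± 0.22 (SE), adjusted p = 0.00901). In 8 of its 9 tumors the signal was above every control lung, and in middle-sized tumor 1 it was below 70.

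The nucleoside diphosphate kinases, which turn diphosphates into triphosphates, rose too. Nme2 had signals of 959, 1003, 1190.1 and 955 in control lung, 2865, 2570.4 and 2653 in small tumors, 1191, 2983, 2198 and 3518 in middle-sized tumors, and 2895, 2534 and 2651 in large tumors. The control lungs and 9 tumors were far apart, while middle-sized tumor 1 at 1191 was level with control lung 3, the highest control (log2 fold change 1.32 ± 0.21 (SE), adjusted p = 0.00014). Nme1 had signals of 61.2, 57.1, 136 and 91.5 in control lung, 215, 209 and 187 in small tumors, 102, 189.5, 63.5 and 234 in middle-sized tumors, and 164, 219 and 228 in large tumors (log2 fold change 0.99 ± 0.28 (SE), adjusted p = 0.00926). In 8 of 10 tumors the signal was above every control lung, and a second Nme1 probe set had a log2 fold change of -0.25 (adjusted p = 0.702, fit without the filter). Nme1 and Nme2 are neighbouring genes of very similar sequence, and the suffix of the Nme1 probe set marks probes that can match related sequences, so their signals may not be separate.

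Among the salvage enzymes, which recycle free bases and nucleosides, 1 rose, 1 fell and 4 were not called. Aprt, the adenine phosphoribosyltransferase, had signals of 65.1, 58.0, 52.6 and 57.2 in control lung, 95.6, 95.8 and 86.9 in small tumors, 70.6, 91.4, 76.3 and 70.9 in middle-sized tumors, and 113, 139 and 105 in large tumors. All tumors passed 70 and no control lung did, with the lowest tumors, at 70.6 and 70.9, close to that limit. Averaged on the log scale, the tumors were 1.35-fold above the limit of 70 that bounds control lung (log2 fold change 0.43 ± 0.10 (SE), adjusted p = 0.00265). As Aprt was tested only because of its tumor signals, its place among the genes called is a description. Pnp, the purine nucleoside phosphorylase, had signals of 987, 1028, 972 and 796 in control lung, 655, 629 and 695 in small tumors, 875, 765, 553 and 702 in middle-sized tumors, and 776, 481 and 680.2 in large tumors. In 9 of 10 tumors the signal was below every control lung, and middle-sized tumor 1 was the exception (log2 fold change -0.50 ± 0.14 (SE), adjusted p = 0.0105). Hprt1, the counterpart of Aprt for hypoxanthine and guanine, was at 663 ± 95.2 (SD, n = 4) in lung of the controls and 874 ± 218 (SD, n = 9) in the tumors (log2 fold change 0.37 ± 0.17 (SE), adjusted p = 0.0865). The kinases Dck (log2 fold change 0.12, adjusted p = 0.652) and Adk (log2 fold change 0.10, adjusted p = 0.732) and the deaminase Ada (log2 fold change -0.15, adjusted p = 0.79) were not called either.

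**Figure D2:**
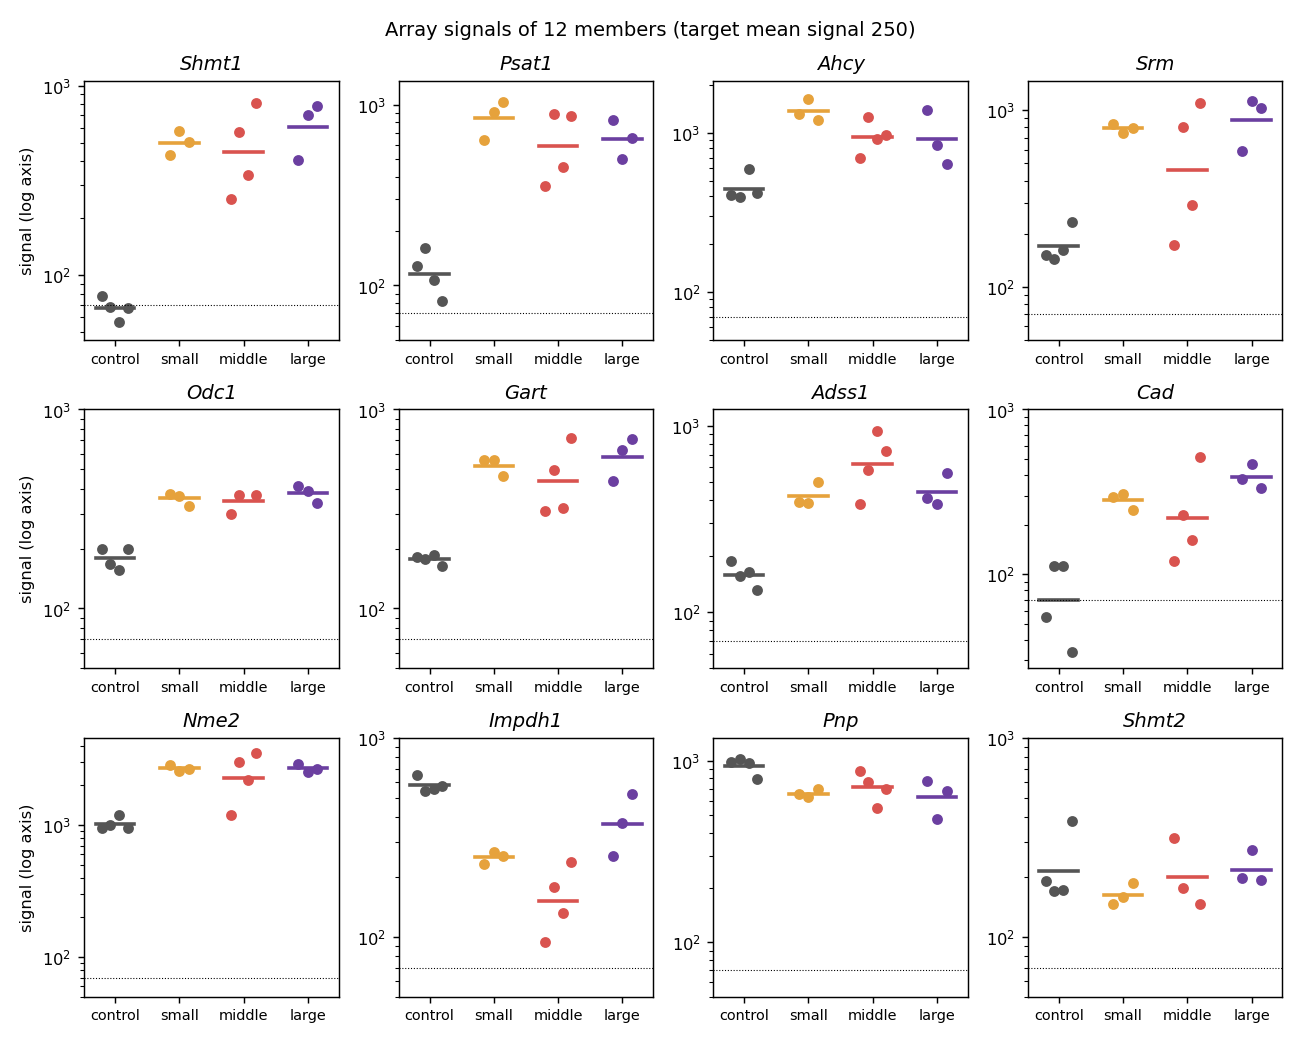
MAS 5 signal on a log axis for 12 of the genes, with 1 point per array, a bar at the geometric mean of each group, and a dotted line at the limit of 70. Shmt1, Psat1, Gart and Adss1 separate all tumors from all control lungs, Impdh1 separates them downwards, and for Srm middle-sized tumor 1 (172) lies inside the control range.

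The genes also differed in how far their signals spread over the 9 tumors other than middle-sized tumor 3, which lacks some of them. Between its lowest and highest tumor the signal of Adss2 spanned 1.31-fold, that of Odc1 1.38-fold and that of Umps 1.49-fold. The spans were 6.55-fold for Srm, 5.55-fold for Impdh1, 4.32-fold for Cad and at least 5.83-fold for Ada, whose signal was below 70 in small tumor 2 and 408 in middle-sized tumor 1. Measured as the median log2 difference from control lung over the 34 genes, the small tumors stood between 0.61 and 0.80 and the large tumors between 0.70 and 0.86. The middle-sized tumors stood at 0.28, 0.76, 0.44 and 0.87, where the value of middle-sized tumor 3 (0.44) is over the 25 genes it has. Middle-sized tumor 1 was the lowest of the tumors in 15 of the 21 genes called higher and did not pass the highest control lung in 7 of them (Mthfd2, Srm, Adsl, Ctps1, Prps1, Prps2 and Nme1). This tumor and middle-sized tumor 3 had Myc signals of 325 and 451, and the other 8 tumors had 760 to 2165. The link between Myc and these genes across tumors was not tested. Leaving out the arrays of both tumors, an alternative chosen after seeing the data, again gave 21 genes higher and 2 lower.

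**Figure D3:**
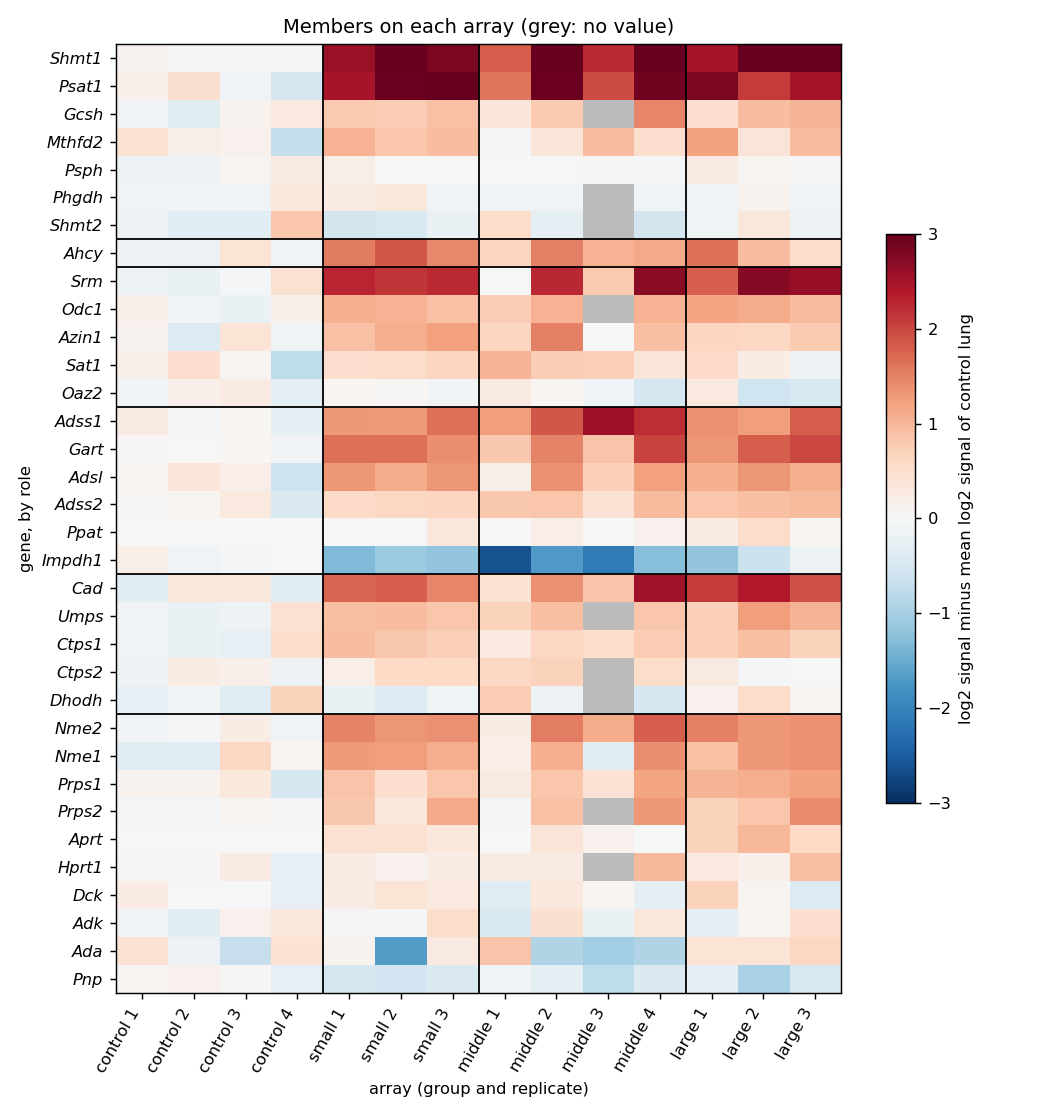
Log2 signal of each tested gene on each of the 14 arrays, less its mean in control lung, with rows grouped by role and grey for the 9 values missing on middle-sized tumor 3. The color scale ends at 3 in either direction, and the column of middle-sized tumor 1 is paler than the other tumors for most genes that rose.

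By size, 20 genes were higher and 2 lower in small tumors, where 19.9% and 16.7% of all probe sets were. In middle-sized tumors 18 were higher and 1 lower, with 15.8% and 16.4% of all probe sets. That count of 18 was 10 with only the groups compared in the fit and 9 in the methods' unpaired test after adjustment. In large tumors 19 were higher and 1 lower, with 19.8% and 18.3% of all probe sets. The 3 comparisons share the 4 control lungs. Relative to the 21 genes called over all tumors, Prps2 was not called in small tumors (adjusted p = 0.0543), Mthfd2, Prps2, Nme1 and Aprt were not called in middle-sized tumors (adjusted p from 0.0708 to 0.425), and Azin1 (adjusted p = 0.0652) and Ctps2 (adjusted p = 0.769) were not called in large tumors. Sat1 was called in middle-sized tumors alone (log2 fold change 0.71, adjusted p = 0.0326). Impdh1 had log2 fold changes of -1.21 in small (adjusted p = 0.00442), -1.93 in middle-sized (adjusted p = 6.6e-05) and -0.65 in large tumors (adjusted p = 0.0845). Pnp was called lower in small and in large tumors.

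None of these genes was called between tumor sizes in limma. At an unadjusted p under 0.05 there were 2 between small and middle-sized, 2 between small and large, and 4 between middle-sized and large tumors, and the methods' unpaired test gave 0, 4 and 3 at the same limit and 0 after adjustment in each. Over all probe sets 0%, 0.0289% and 0% were called in these 3 comparisons. The smallest adjusted p-values of the limma fit were those of Aprt (log2 fold change -0.62, adjusted p = 0.279) and Impdh1 (log2 fold change -1.28, adjusted p = 0.279), both lower in middle-sized than in large tumors. Without middle-sized tumor 4, 1 gene, Impdh1, was called between middle-sized and large tumors (log2 fold change -1.49, adjusted p = 0.0437). With 3 or 4 arrays per size, a p that misses the limit does not show that the sizes are alike.

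Where 2 isozymes of a step were both measured, the change of one was set against that of the other on each array. Of 8 pairs in the list 5 could be compared, and an exact two-sided permutation test over arrays was adjusted over these 5. Shmt1 rose more than Shmt2 by 3.04 on the log2 scale (exact permutation p = 0.0014, the smallest these arrays allow, adjusted p = 0.00699, 9 tumors and 4 control lungs). The signal of Shmt1 was raised to 70 in 3 of these control lungs, and Shmt1 passed the filter only with its tumor arrays. The p-value of this pair is therefore a description. The single Shmt2 probe set was highest on control lung 4 and middle-sized tumor 1. The same arrays were highest on 161397_r_at of Dhodh, which disagreed with the other Dhodh probe set. Whether the Shmt2 signal follows its transcript was not tested, so the difference holds for these probe sets. Adss1 rose more than Adss2 by 0.91 (exact permutation p = 0.004, adjusted p = 0.00999, 10 tumors and 4 control lungs). Without control lung 3 this difference was 0.82 with an adjusted p of 0.0525 in the exact permutation test.

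The other pairs were not separated. The difference was 0.33 for Ctps1 and Ctps2 (adjusted p = 0.289 in the exact permutation test), -0.35 for Nme1 and Nme2 (adjusted p = 0.289, exact permutation test) and 0.05 for Prps1 and Prps2 (adjusted p = 0.769, exact permutation test). For Nme1 and Nme2 the mean of all their probe sets gave -0.90 (adjusted p = 0.014, exact permutation test), since the second Nme1 probe set did not rise.

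**Figure D4:**
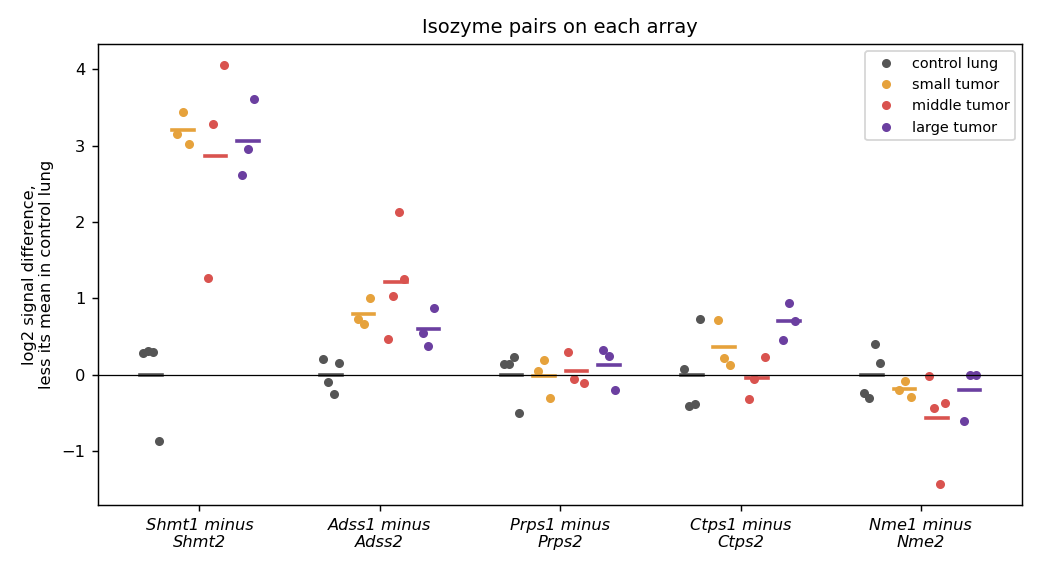
Log2 signal of the first isozyme minus that of the second on each array, less its mean in control lung, with 1 point per array and a bar at the group mean, for 5 pairs. Tumors lie above control lung for Shmt1 minus Shmt2 (mean difference 3.04) and Adss1 minus Adss2 (0.91) and overlap with it in the other 3 pairs.

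Further genes of the same pathways were counted from 6 lists with 85 names, of which 50 were on the array and 42 were tested. Of these 15 were higher (35.7%) and 6 lower (14.3%), against 23.6% and 21% of all probe sets, with a median log2 fold change of 0.14. Of the 15, 4 were below 70 in every control lung (Rrm2, Nme4, Slc19a1 and Arg1) and were tested only because of their tumor signals. Without such genes 11 of 37 were higher (29.7%), against 22.7% of all probe sets chosen in the same way. The 11 still hold Enoph1, which was below 70 in 2 control lungs and so also needed tumor arrays to pass the filter. The separate lists hold 5 to 10 tested genes each, and the shares of 23.6% higher and 21% lower are the background of each count. Among 8 genes of deoxynucleotide metabolism 5 were higher, with Tk1, the thymidine kinase of dividing cells (log2 fold change 1.58, adjusted p = 0.00126), and Rrm1, the large subunit of ribonucleotide reductase (log2 fold change 1.20, adjusted p = 0.0173), and 1 was lower, Samhd1, which breaks down deoxynucleoside triphosphates (log2 fold change -0.89, adjusted p = 0.00019). Of 10 nucleotide kinases and salvage genes 5 were higher and none lower, led by the uridine-cytidine kinase Uck2 (log2 fold change 1.89, adjusted p = 1.2e-05). Of 5 genes of purine and pyrimidine breakdown none was higher and 3 were lower, the AMP deaminase Ampd3 (log2 fold change -1.58, adjusted p = 3.7e-05), the xanthine dehydrogenase Xdh (log2 fold change -1.29, adjusted p = 0.00649) and the ectonucleotidase Entpd1 (log2 fold change -0.97, adjusted p = 0.00455).

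Of 5 further folate and glycine genes 2 were higher and 2 lower. The reduced folate carrier Slc19a1 had a mean signal of 364 in tumors and 40.1 in control lung, where every array was below 70. Averaged on the log scale, Slc19a1 was at least 4.96-fold higher (adjusted p = 9.5e-06). Fpgs, which adds the glutamate tail that keeps folate in the cell, was higher too (log2 fold change 0.76, adjusted p = 0.00577). Ggh, which removes that tail (log2 fold change -0.85, adjusted p = 0.00047), and the folate receptor Folr2 (log2 fold change -0.51, adjusted p = 0.00293) were lower. Of 8 polyamine and ornithine genes 3 were higher, the arginases Arg2 (log2 fold change 3.07, adjusted p = 7.4e-06) and Arg1, which supply ornithine, and Enoph1 of methionine salvage (log2 fold change 0.83, adjusted p = 0.00075). Arg1 had a mean signal of 277 in tumors and 26.2 in control lung, where every array was below 70. The tumors ranged from 34.2 to 864, and 1 of them was below 70. Averaged on the log scale, Arg1 was at least 2.79-fold higher (adjusted p = 0.0263), which does not hold for each tumor. Of the 6 methyl and sulfur genes 0 were called in limma, and 0 had an unadjusted p under 0.05. Of 15 proliferation markers 13 were higher and none lower (23.6% and 21% of all probe sets). Of the 13, 5 were below 70 in every control lung, and without such genes 8 of 9 were higher. The summed signal of 14 of these markers was 1713 to 1899 in control lung and 2336 to 7977 in tumors, and their part in the changes of the enzymes was not tested.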

How the data were processed

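RNA of 14 mouse samples was hybridized by the authors to Affymetrix Murine Genome U74v2 arrays. The deposited signal is a linear intensity per probe set, computed by the authors with the MAS 5 algorithm of the Affymetrix GCOS software and scaled to a target of 250 per array, so values are relative to all RNA measured on an array. The mean without the highest and lowest 2% was 250.1 on 13 arrays and 196 on middle-sized tumor 3, where 3125 values below 1e-06 were treated as missing (277 without them). The number of arrays limits the precision. Detection calls and arrays of transgenic lung without tumor were not used here.

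Probe sets were named by the platform annotation, in which 10833 of 12422 had 1 symbol, 396 several and 1193 none. Probe sets that reached 70 on 3 or more arrays were kept, and for a symbol with several of these the one of highest mean was used, which left 6914. Lower signals were then raised to 70. The 4 groups were compared in 1 linear model of limma 3.58.1 under R 4.3.3, with an intensity trend of the variance and Benjamini-Hochberg adjustment, and the code was tested on simulated data. The comparison of all tumors averages the 3 sizes. Second probe sets come from a fit of all probe sets without the filter. Isozyme pairs were compared by an exact two-sided permutation test over arrays.

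All 35 genes on the array are named, with signals of every array for those called or compared as isozymes and means for most others. The members, the lists of pathway genes and markers, the tests and the alternatives were chosen with earlier results of these data known. Promoter windows are from RefSeq (GRCm38.p6). The alternatives were other floors, scalings, filters and probe set choices, a robust spread, only the groups compared, weights for arrays, a replicate block, the unpaired test of the methods, the values near 0 kept as deposited, and each array left out.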

Additional observations from a re-analysis of the deposited data

Results flagged for a closer look

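In groups of 4 arrays, 57 sets of linear signals of the tested genes were searched for a lowest or highest array far from the others. There were 5 such sets. Chance gives about 1 in 20 for independent, normally distributed values. The sets share arrays and the signals were not on a log scale, so that rate need not hold here. Among the control lungs, replicate 4 was high for Shmt2 at 385 (the others 169.8 to 191.7), for Umps at 259 (the others 164 to 174) and for Ctps1 at 1111 (the others 650.3 to 709). Control lung 3 was high for Ahcy at 597 (the others 393 to 419.9). Among the middle-sized tumors, replicate 1 was high for Ada at 408 (the others 108 to 119.9).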

How the results depend on the processing

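Of the 23 called genes 17 kept their call and direction under every alternative, 6 lost the call under at least 1, and 0 reversed. Each alternative counted a gene by its probe set of highest mean, so these numbers do not cover a second probe set. That of Nme1 did not rise (log2 fold change -0.25, adjusted p = 0.702, limma fit without the filter). With the values near 0 on middle-sized tumor 3 kept as deposited, and so raised to 70, Odc1 (log2 fold change 0.81, adjusted p = 0.0829), Gcsh (0.60, adjusted p = 0.315), Umps (0.71, adjusted p = 0.131) and Ctps2 (0.17, adjusted p = 0.783) were no longer called. Aprt was lost in the methods' unpaired test after adjustment (0.40, adjusted p = 0.0583), and Mthfd2 without control lung replicate 4. Scaling to 1 median moved the median of all probe sets by 0.11 and the share of calls that were higher from 52.9% to 63.6%, with 23 members higher and 2 lower. The number of genes called lower in small tumors was 1 and not 2 with that scaling, with no filter and with values near 0 kept. In large tumors it was 2 with array weights and 0 in the methods' test after adjustment, against 1, and in middle-sized tumors 2 with array weights and in the methods' test at an unadjusted p under 0.05, against 1. Genes higher in middle-sized tumors numbered 10 with only the groups compared in the fit and 9 in the methods' test after adjustment, against 18. The cause was not tested.

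Leaving out each array in turn gave 19 to 22 genes higher over all tumors, 16 to 21 in small, 12 to 18 in middle-sized and 16 to 20 in large tumors, and 2 to 2, 1 to 2, 1 to 2 and 0 to 2 genes lower. Between sizes it gave 0 to 1 calls for middle-sized against large tumors and 0 for the other pairs, and the methods' test at an unadjusted p gave 3 for middle-sized and 4 for small against large tumors. The difference within isozyme pairs ranged from 0.77 to 0.97 for Adss1 and Adss2 and from -0.12 to 0.12 for Prps1 and Prps2, which was -0.0031 with no floor, and was -0.90 for Nme1 and Nme2 over all probe sets. Of genes not called, the log2 fold change changed sign among those ranges for Ada (-0.38 to 0.056), Adk (-0.019 to 0.20), Dhodh (-0.11 to 0.25), Phgdh (-0.036 to 0.11), Psph (-0.0083 to 0.14) and Shmt2 (-0.28 to 0.12), for Dhodh with values near 0 kept (-0.23) and without middle-sized tumors 1 and 3 (-0.10), and for Oaz2 with scaling to 1 median (0.023).

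Replicate numbers are of different animals and share only a number. With the replicate number as a block 20 genes were higher and 2 lower over all tumors, with Ctps2 lost (adjusted p = 0.0679). Same-numbered arrays of different groups had correlations of deviations between -0.23 and 0.14, and 0 of 14 arrays correlated best with its own number.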
